A study of Mus musculus with 7 samples.

Results

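The regions described here are the stretches of the mouse genome in which Oct4 peaks of embryonic stem cells (ESCs) lay closest together. They were chosen by their position alone: a peak of the Oct4 list was kept when at least 4 other peaks of the same list had midpoints within 10 kb of its own, and kept peaks with midpoints no more than 10 kb apart were joined into a locus that ran from the first start to the last end. The rule kept 1379 of 22817 Oct4 peaks, or 6.04%, and these dense peaks formed 400 loci. The remaining 21438 Oct4 peaks served for comparison.

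The study profiled chromatin by ChIP-seq in ESCs of the genotype given as parental and in their derivatives on the way to mesoderm. Undifferentiated ESCs gave an Oct4 library (antibody sc-5279) and an Oct1 library (antibody NBP2-21584), and the Oct1 antibody was also used at day 3 and at day 6 of differentiation. The protocol exposed cells to Bmp4 for 2 days and then, for 4 days, to Rspo3 with the BMP receptor inhibitor LDN-193189. Every group held 1 library, so no spread between replicates can be given, no test across libraries was made, and the 3 input samples were not analysed here. Oct4 was profiled in undifferentiated cells only, so day 3 and day 6 values give Oct1 peaks at places where Oct4 peaks had been listed in ESCs.

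Oct4 (gene Pou5f1) and Oct1 (gene Pou2f1) are POU-domain transcription factors that recognise the same octamer element through a pair of linked DNA-binding domains. Oct4 is restricted to pluripotent and germ cells, where it often binds beside Sox2 at enhancers, whereas Oct1 is made in nearly all cell types. Closely spaced Oct4 sites are known from enhancer clusters of pluripotency genes, and they also occur along the bodies of other genes.

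The genome sequence of the peaks was not used here, so the sequences shown are RefSeq promoters (GRCm38.p6) that a dense Oct4 peak overlapped. Each window runs from 250 bases before to 50 bases after a gene's start and is written 5′ to 3′ on the gene's strand. In total 43 such windows of 42 genes lay under dense peaks, of 32851 windows of 27025 genes in the table. The first 5 windows are of protein-coding genes that belong to the 25 loci with the most dense peaks or carried Oct1 at a later day. Capitals mark CG dinucleotides. Other windows of these kinds are not shown. They belong to the long noncoding RNA genes 9630028I04Rik, in the locus near Lemd2, and Gm29834, and to Tk1 and Gm13032, which carried later Oct1. Septin9 (chr11:117331465-117331764, + strand) encodes a cytoskeletal GTPase and is the gene of the largest locus. Its window lies at an internal start, since the annotated gene begins at 117199661. Slc38a8 (chr8:119501649-119501948, - strand) encodes an amino acid transporter, and Ip6k3 (chr17:27167715-27168014, - strand) an inositol hexakisphosphate kinase. Capg (chr6:72549397-72549696, + strand), a gene for an actin-capping protein, carried Oct1 both in ESCs and at day 3. Afmid (chr11:117825669-117825968, + strand), a gene of tryptophan breakdown next to the thymidine kinase gene Tk1, carried Oct1 both in ESCs and at day 6.
Septin9: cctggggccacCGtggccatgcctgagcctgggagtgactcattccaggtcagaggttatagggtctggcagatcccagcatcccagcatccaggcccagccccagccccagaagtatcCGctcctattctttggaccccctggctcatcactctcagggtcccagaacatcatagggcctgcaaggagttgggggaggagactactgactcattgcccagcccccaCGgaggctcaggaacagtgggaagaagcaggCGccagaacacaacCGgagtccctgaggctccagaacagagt
Slc38a8: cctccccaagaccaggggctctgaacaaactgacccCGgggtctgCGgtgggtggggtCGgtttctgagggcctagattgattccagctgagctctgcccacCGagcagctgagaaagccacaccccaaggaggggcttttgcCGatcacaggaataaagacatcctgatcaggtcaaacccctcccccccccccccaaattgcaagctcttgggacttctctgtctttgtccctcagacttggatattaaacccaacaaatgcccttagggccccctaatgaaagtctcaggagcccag
Ip6k3: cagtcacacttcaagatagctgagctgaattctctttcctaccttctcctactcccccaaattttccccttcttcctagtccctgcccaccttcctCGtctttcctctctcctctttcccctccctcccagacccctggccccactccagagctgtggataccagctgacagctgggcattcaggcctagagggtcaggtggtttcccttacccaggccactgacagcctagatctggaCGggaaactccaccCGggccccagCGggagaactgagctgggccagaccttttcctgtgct
Capg: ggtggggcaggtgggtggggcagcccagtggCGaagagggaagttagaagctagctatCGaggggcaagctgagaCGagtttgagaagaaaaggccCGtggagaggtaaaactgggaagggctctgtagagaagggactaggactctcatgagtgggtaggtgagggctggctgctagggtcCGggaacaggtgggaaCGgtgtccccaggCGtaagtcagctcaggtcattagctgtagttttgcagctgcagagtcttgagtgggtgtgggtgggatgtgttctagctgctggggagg
Afmid: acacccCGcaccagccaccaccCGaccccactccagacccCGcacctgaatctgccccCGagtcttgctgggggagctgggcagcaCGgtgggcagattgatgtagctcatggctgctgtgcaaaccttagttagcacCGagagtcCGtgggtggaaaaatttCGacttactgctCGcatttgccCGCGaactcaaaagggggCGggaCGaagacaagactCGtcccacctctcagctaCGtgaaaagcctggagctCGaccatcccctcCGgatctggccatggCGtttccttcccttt
The Afmid window held 18 CG dinucleotides, and the other 4 held from 4 to 7. The last window is shown for its octamer, written in capitals. It belongs to Padi3 (chr4:140810599-140810898, - strand), which encodes a peptidylarginine deiminase, and it lay under a dense Oct4 peak with a score of 135. The ESC Oct1 peak there scored 1673, the highest of any Oct1 peak on a dense Oct4 peak in ESCs, and the day 3 Oct1 peak scored 390.
Padi3: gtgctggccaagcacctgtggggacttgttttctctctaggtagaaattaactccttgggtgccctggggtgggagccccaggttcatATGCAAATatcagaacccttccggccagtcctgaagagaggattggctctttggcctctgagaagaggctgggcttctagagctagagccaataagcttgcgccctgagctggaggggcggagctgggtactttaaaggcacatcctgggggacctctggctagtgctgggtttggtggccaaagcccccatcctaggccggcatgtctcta

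The octamer was searched as ATGCAAAT and, on the other strand, as ATTTGCAT, and the element bound by SOX factors as CATTGT and ACAATG. An octamer was present in 2 of the 43 windows under dense peaks, or 4.65%. Both were the same site, at base 89 of the Padi3 window, because the window of the neighbouring gene Gm13032 overlaps it. The octamer share was 2.31% of 1171 windows under other Oct4 peaks and 1.74% of all windows. SOX letters stood in 5 of the 43 windows, or 11.6%, beside 9.14% under other Oct4 peaks and 12.6% of all windows. A window without a match lacks only these letters, and most dense peaks did not lie on a promoter at all. The dense windows held a median of 5 CG dinucleotides, against 8 under other Oct4 peaks and 7 over all windows. GC content did not separate them, with a median of 55.7% both under dense and under other Oct4 peaks. Oct1 peaks of ESCs overlapped 25 of the 43 windows, or 58.1%, beside 64.7% under other Oct4 peaks and 4.77% of all windows. Day 3 Oct1 overlapped 3 of the 43, or 6.98%, and day 6 Oct1 overlapped 2, or 4.65%, whereas under other Oct4 peaks these shares were 20.4% and 28.2%. Over all windows they were 9.78% and 21.4%. The day 3 windows of Padi3 and Gm13032 lay under the same dense peak, as did the day 6 windows of Afmid and Tk1.

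Dense peaks were close to other Oct4 peaks in height. The score is the authors' whole-number value for each peak, with no unit, and it served here only to rank peaks within a list. Scores of dense peaks ran from 39 to 2728 with a median of 147, and other Oct4 peaks had a median of 143 and reached 56404. The interquartile range of the dense peaks was 106 to 195.5. Dense peaks were somewhat wider, with a median of 680 bp against 640 bp. Just inside the threshold, the 899 peaks with 4 other peaks nearby had a median score of 147 and a median width of 670 bp. Just outside it, the 1903 peaks with 3 others had 137 and 680 bp. At the far end, 1 peak had 9 others within 10 kb and 6 peaks had 8, while 10303 peaks, or 45.2% of the list, had none.

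The 15 highest dense scores ranked from 15 to 273 in the whole Oct4 list. The highest dense score, 2728, belonged to a peak in Sfi1, a gene for a centrosome protein, at chr11:3136501-3137230. That locus held 3 of the 5 highest dense scores (2728, 1444 and 733). It also overlaps the pseudogene Pisd-ps1, and how reads that fit several places were assigned is not given in the sources used here, so the scores there are uncertain. The others of the top 5 were a peak in the sulfotransferase gene Sult4a1 with a score of 872 and one in Piezo1, a mechanically gated ion channel gene, with a score of 783. All of the top 5 but the Sfi1 peak with 733 overlapped an Oct1 peak in ESCs.

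Most loci were short. A single dense peak made up 94 loci, which arise when the neighbours that qualify a peak do not themselves have 4 others. Another 179 loci held 2 to 4 dense peaks, and 127 held 5 or more and contained 766 dense peaks, or 55.6% of all. The median locus was 8025 bp long with 3 dense peaks, the longest 63520 bp with 21, and all loci together spanned 3077 kb. Between neighbouring Oct4 peaks of a locus, which include 39 enclosed peaks that were not dense, 1018 gaps ran from 110 to 8750 bp with a median of 1475 bp, and 183 of them were under 500 bp. Oct4 peaks covered 35.7% of the length of the loci, which therefore alternated between peaks and longer unlisted stretches.

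A protein-coding gene overlapped 314 of the 400 loci, or 78.5%, and the other 86 lay at a median of 20228 bp from the nearest one. Dense peaks sat inside a protein-coding gene in 73.9% of cases (95% exact interval 71.5 to 76.2), compared with 61.5% of other Oct4 peaks (60.8 to 62.1). A smaller share lay near a gene start: 113 of 1379, or 8.19% (6.80 to 9.77), had a midpoint within 1 kb of one, compared with 12.1% of other Oct4 peaks and 11.9% of all Oct4 peaks. Gene starts came from the promoter table, and either end was used for genes without one there. With starts of the promoter table alone, 4.13% of dense peaks (3.15 to 5.32) and 6.56% of other Oct4 peaks (6.24 to 6.90) lay within 1 kb of a start. These intervals and those that follow are Clopper-Pearson intervals that cover the counting of peaks only. Peaks of one locus share their surroundings, but the intervals treat peaks as independent, so they are likely too narrow.

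Dense peaks were unevenly spread over chromosomes. Chromosome 11 held 337 of them, or 24.4%, although it held 13.2% of all Oct4 peaks and 7.35% of protein-coding genes. Of the Oct4 peaks on chromosome 11, 11.2% were dense, followed by 9.14% on chromosome 8 and 8.53% on chromosome 17. Chromosome 13, at the other end, held 7 dense peaks (1.26% of its Oct4 peaks). Chromosome X held 5 dense peaks among 102 Oct4 peaks (4.90%), and chromosome Y held none among 2. The plot of shares by chromosome shows chromosome 11 apart from all others. Of 2044 segments of 1 Mb with an Oct4 peak, 224 held a dense one, and the top 10 held 23.0% of dense peaks but 4.73% of all Oct4 peaks. The richest segments were neighbours on chromosome 11, with 57 dense peaks from 117 to 118 Mb and 52 from 118 to 119 Mb. Next came 41 dense peaks on chromosome 17 (27 to 28 Mb) and 37 on chromosome 8 (122 to 123 Mb). The segment around a dense peak held a median of 16 protein-coding genes, and that around another Oct4 peak 14.

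**Figure D1:**
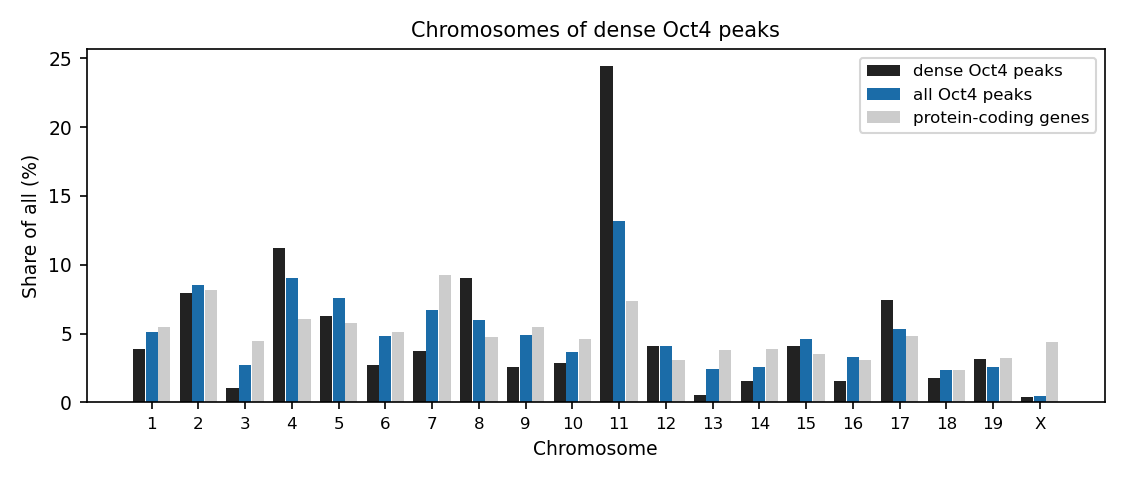
Share (%) of dense Oct4 peaks, of all Oct4 peaks and of protein-coding genes on each chromosome; bars start at 0 and chromosome Y, with no dense peak, is left out. Chromosome 11 held 24.4% of dense peaks, against 13.2% of all Oct4 peaks.

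By gene, dense peaks were counted over the whole gene body. Rbfox3, the neuronal splicing factor gene whose product is the NeuN marker, held 32 dense peaks among 76 Oct4 peaks along 421838 bp, in 6 loci. Septin9 held 26 dense peaks of 33 Oct4 peaks in 4 loci. The zinc finger gene Zfp469 held 19 of 35, and Gse1, which encodes a subunit of a histone demethylase and deacetylase complex, held 16 of 41. Galnt10, an enzyme of mucin-type glycosylation, held 11 of 21. Shorter genes were also among those with the most dense peaks: Lasp1 held 9 of 11 in 39761 bp, Pgs1 8 of 9 in 37715 bp, and Slc38a8 8 of 8 in 22125 bp.

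The largest locus stood at the 3′ part of Septin9 (chr11:117319691-117383210) and extended past the annotated gene end at 117362325. Its 21 dense peaks had scores from 71 to 470 with a median of 176, the highest above 98.5% of the Oct4 list. The peak with 9 others nearby (score 232) lay in this locus. ESC Oct1 had 12 peaks there, which overlapped 13 of the 21 dense peaks, and a single one of the 12 lay between Oct4 peaks. The strongest of these Oct1 peaks had a score of 426, above 93.8% of its list. The highest Oct4 score of the locus, 470, coincided with an Oct1 score of 97, below the list median of 106. The dense peak over the promoter shown above had the score 92 and no Oct1 peak. No Oct1 peak of day 3 or day 6 lay in the locus.

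The next loci differed in how often Oct1 accompanied Oct4. A locus of 13 dense peaks spanned the end of the phospholipid synthesis gene Pgs1 and of the axonemal dynein gene Dnah17, with Oct4 scores from 89 to 343. ESC Oct1 overlapped 6 of those 13, and 1 weak day 3 Oct1 peak with a score of 55 was present. A locus of 12 in Zfp469 had scores from 68 to 311 and 4 ESC Oct1 peaks. A locus of 10 in Rbfox3 had scores from 50 to 242, with 6 ESC Oct1 peaks and 1 of day 6. Lasp1, which encodes an actin-binding LIM and SH3 protein, held 9 dense peaks, with 6 ESC Oct1 peaks and 2 of day 6. At Slc38a8 the 9 dense peaks scored from 103 to 348, and 6 of them overlapped 1 of 5 ESC Oct1 peaks.

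The fourth locus was unlike the rest. It lay 27160 bp from the nearest protein-coding gene, Lemd2, which encodes an inner nuclear membrane protein, and held 11 dense Oct4 peaks with scores from 72 to 457. Between them, at chr17:27238421-27239210, stood an Oct1 peak without any Oct4 peak, with an ESC score of 13805 that ranked 27 of 17709. At day 3 the same place had an Oct1 score of 2947, which ranked 69 of 4867, and at day 6 it had no listed peak. The other 6 ESC Oct1 peaks of the locus each overlapped a dense peak and scored from 91 to 476. This was the highest-scoring Oct1 peak within any of the 400 loci, both in ESCs and at day 3.

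**Figure D2:**
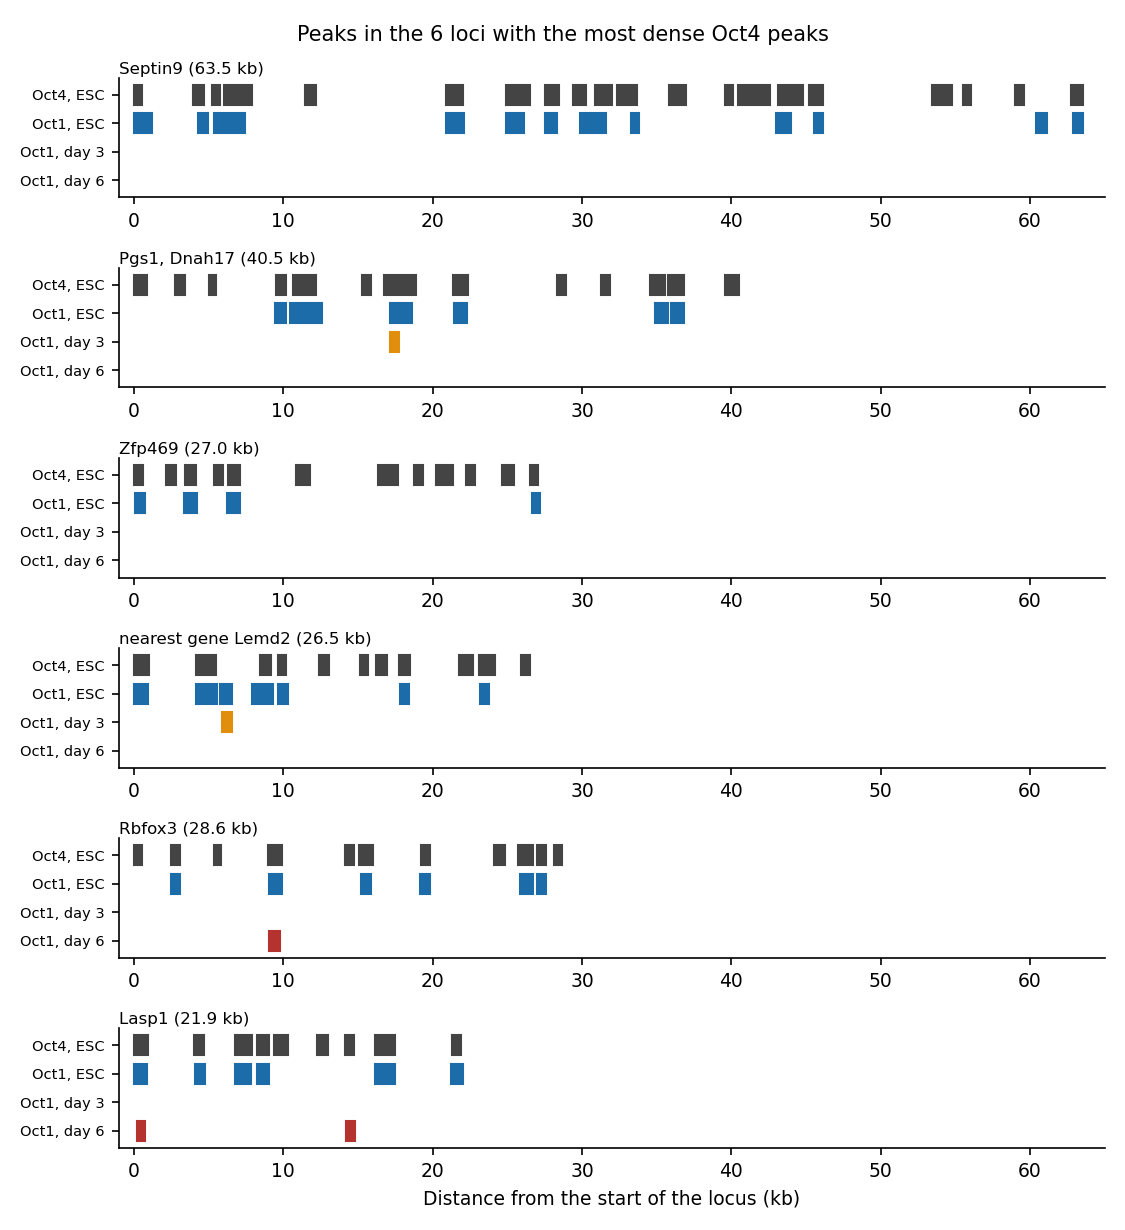
Positions of Oct4 and Oct1 peaks (bars, to scale) along the 6 loci with the most dense Oct4 peaks, by distance in kb from the start of each locus; rows are the 4 peak lists. Oct1 peaks of ESCs are present in each locus and mostly sit on Oct4 peaks, but the Zfp469 locus has none between 7.09 and 26.67 kb. The day 3 and day 6 rows are nearly empty.

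The 25 loci with the most dense peaks held 222 of them, from 7 to 21 each, over 11200 to 63520 bp. By chromosome, 9 lay on chromosome 11, 4 on chromosome 8 and 3 on chromosome 17. A protein-coding gene overlapped 23 of the 25, and the locus without one, besides that near Lemd2, lay 14013 bp from A530016L24Rik. Several encode proteins of the cytoskeleton and cell periphery, namely Septin9, Lasp1, Coro1c, Sh3pxd2a and Mbp (myelin basic protein, with Zfp236). Others encode kinases or their scaffolds, namely Stk10, Cdk18 and Ksr1. The histone demethylase gene Kdm4b, the glycosylation gene Galnt10, the epithelial transcription factor gene Grhl3 (with Stpg1) and the adenosine receptor gene Adora1 (with Mybph) were also among them. These gene groups were named after the loci were seen, and no enrichment was computed. ESC Oct1 was present in all 25, with 2 to 12 peaks each and 122 in total. It lay on 116 of the 222 dense peaks (52.3%), near the 46.0% over all Oct4 peaks. All 53 loci with 6 or more dense peaks also had it. Day 3 Oct1 was present in 5 of the 25 with 6 peaks, and day 6 Oct1 in 6 with 8 peaks. Over all 400 loci, most of them shorter, the shares were 8.25% at day 3 and 12.8% at day 6. The Stpg1 and Grhl3 locus held more ESC Oct1 peaks (8) than dense Oct4 peaks (7).

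In ESCs, Oct1 overlapped 687 of 1379 dense Oct4 peaks by at least 1 bp. This share of 49.8% (47.2 to 52.5) was near the 46.0% found over all Oct4 peaks and the 45.7% (45.1 to 46.4) over the other Oct4 peaks. The difference of 4.09 percentage points had a 95% interval of 1.37 to 6.81, which by a normal approximation covers counting alone. Without chromosome 11 it was 2.88 (-0.238 to 5.99), so that the interval reached 0. It was 0.724 (-1.60 to 3.05) with the higher-scoring 50% of Oct1 peaks and turned to -0.227 when an overlap of 50% of both peaks was required. Dense peaks and ESC Oct1 peaks were less well centred on each other, with a median distance between midpoints of 75 bp (58.4% within 100 bp), against 55 bp (71.3% within 100 bp) at other Oct4 peaks. Dense peaks with ESC Oct1 were also wider, at a median of 760 bp against 690 bp, and distances were not compared at equal width. At day 3 the median distance was 92.5 bp at 34 dense peaks against 70 bp at others. At day 6 the order was reversed, with 55 bp at 51 dense peaks against 65 bp.

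Along the density scale the ESC share was 44.5% for Oct4 peaks with no other peak nearby, 49.9% with 3 others, 49.4% with 4 and 48.9% with 5. For the 120 peaks with 6 or more it was 55.8% (46.5 to 64.9), an interval that reaches down to the shares of sparser peaks. Oct4 score and width moved with the Oct1 share more than density did. In the lowest quartile of Oct4 scores 25.6% of dense and 25.4% of other peaks had ESC Oct1, in the second 45.3% and 38.8%, in the next 52.6% and 50.5%, and in the highest 72.9% and 68.4%. Within quartiles of peak width the shares of dense and other peaks were 29.5% and 28.5%, 40.3% and 40.5%, 51.5% and 50.3%, and 66.5% and 64.3%. Dense peaks with ESC Oct1 had a median Oct4 score of 168 and a median width of 760 bp, and those without had 125.5 and 620 bp. Chromosome 11 also moved with the share: there 58.2% of dense and 56.1% of other Oct4 peaks had ESC Oct1, and elsewhere 47.1% and 44.3%.

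At day 3 Oct1 overlapped 34 dense peaks, or 2.47% (1.71 to 3.43), against 4.39% of other Oct4 peaks and 4.27% of all. The difference was -1.92 percentage points, with a counting interval of -2.79 to -1.06. At day 6 it overlapped 51, or 3.70% (2.77 to 4.83), against 4.43% of other Oct4 peaks and 4.39% of all. That difference, -0.733 points (-1.77 to 0.300), had an interval that included 0, but the interval lay below 0 with a minimum of 3 others (-1.28, -1.96 to -0.604) and with a 20 kb window (-1.34, -1.93 to -0.749). Position by gene starts moved with both. Within 1 kb of a gene start, day 3 Oct1 overlapped 3.54% of 113 dense and 11.6% of 2595 other Oct4 peaks, and day 6 Oct1 4.42% and 13.7%. These places include either end of genes without a known start. At starts of the promoter table alone, 57 dense and 1407 other Oct4 peaks remained, of which 2 dense peaks (3.51%, 0.428 to 12.1) and 16.1% of the others had day 3 Oct1, and again 2 dense peaks and 19.8% of the others had day 6 Oct1. Away from gene starts the day 3 shares were 2.37% of 1266 dense and 3.40% of 18843 other peaks. The day 6 shares there were 3.63% of dense and 3.15% of other peaks, so the day 6 difference changed sign to 0.481 points.

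**Figure D3:**
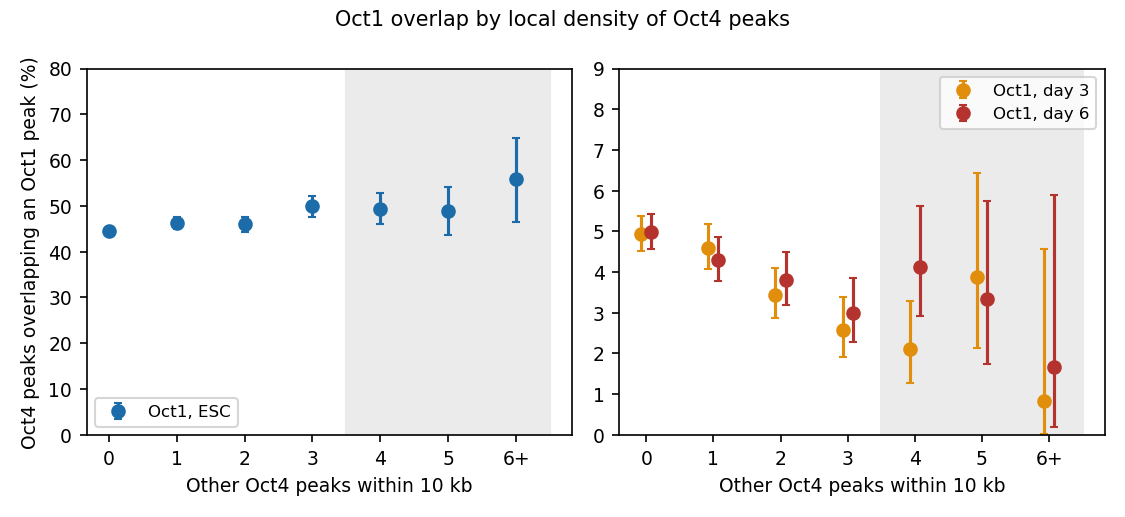
Share of Oct4 peaks (%) that overlap an Oct1 peak, by the number of other Oct4 peaks within 10 kb; left, Oct1 in ESCs, right, Oct1 at day 3 and day 6, with exact 95% intervals as bars and dense peaks on grey. The ESC share is 44.5% at 0 others and 55.8% at 6 or more. The day 3 share is 4.93% at 0 others, 2.11% at 4, 3.89% at 5 and 0.833% (1 of 120 peaks) at 6 or more, with no steady order among dense peaks.

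Peak by peak, 677 dense Oct4 peaks (49.1%) had no Oct1 peak in any list and 619 (44.9%) had one in ESCs only. Oct1 was listed in ESCs and at day 3 on 27, in ESCs and at day 6 on 39, at day 3 only on 5 and at day 6 only on 10. All 3 Oct1 lists met on 2 dense peaks, or 0.145%, compared with 233 other Oct4 peaks, or 1.09%. Thus 29 of 34 dense peaks with day 3 Oct1 (85.3%) and 41 of 51 with day 6 Oct1 (80.4%) also had ESC Oct1. At other Oct4 peaks these shares were 81.6% and 78.6%.

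Counted by locus, the loci held 734 ESC Oct1 peaks, which is 4.14% of that list, 38 of day 3 and 55 of day 6. Of the 734, 674 lay on dense peaks, 19 on the few other Oct4 peaks enclosed in the loci, and 41 (5.59%) on none. In the ESC Oct1 list as a whole, 40.9% of peaks lay on no Oct4 peak. In loci with 5 or more dense peaks, where Oct4 peaks covered 34.0% of the length, 26 of 395 ESC Oct1 peaks (6.58%) lay on none. A locus starts and ends with an Oct4 peak, which favours overlap in short loci. Loci were also chosen for closely spaced Oct4 peaks, so a low share of Oct1 peaks on none is partly set by the rule. The median gap was 1475 bp, the median ESC Oct1 peak was 630 bp wide, and 1 bp of overlap sufficed. Covered length therefore understates how readily an overlap arises.

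ESC Oct1 occurred in 328 of 400 loci, or 82.0% (77.9 to 85.6), day 3 Oct1 in 33, or 8.25% (5.75 to 11.4), and day 6 Oct1 in 51, or 12.8% (9.64 to 16.4). In 251 loci (62.8%) Oct1 was listed in ESCs only, in 26 in ESCs and at day 3, and in 45 in ESCs and at day 6. Just 1 locus had Oct1 at day 3 alone and none at day 6 alone. For comparison, Oct4 peaks that were not dense were joined by the same distance into 14623 stretches clear of the dense loci. The share of these with Oct1 was 53.5% in ESCs, 6.52% at day 3 and 6.55% at day 6, and 10584 of them were single peaks. At equal numbers of Oct4 peaks, dense or not, ESC Oct1 occurred in 53.2% (42.6 to 63.6) of dense loci and 44.5% of stretches with 1 peak, in 79.4% (67.9 to 88.3) and 70.3% with 2, in 81.6% (65.7 to 92.3) and 84.8% with 3, and in 97.2% (90.3 to 99.7) and 88.9% with 4. Day 3 Oct1 occurred in 2.13% (0.26 to 7.5) and 4.90% with 1 peak, and in 7.35% (2.43 to 16.3) and 8.89% with 2. It occurred in 5.26% (0.64 to 17.8) and 13.1% with 3, and in 11.1% (4.92 to 20.7) and 11.9% with 4. Each dense class was below its stretches, but the dense classes rested on 2, 5, 2 and 8 loci with day 3 Oct1. Every interval also held the share of its stretches. Day 6 Oct1 occurred in 9.57% and 4.97%, 8.82% and 8.34%, 13.2% and 13.7%, and 15.3% and 12.1% in the same order. With 2 or more peaks the dense loci were shorter, at a median of 9595 bp against 13590 bp with 4 peaks. The share with ESC Oct1 was 53.2% among loci of 1 dense peak, 87.2% among those of 2 to 4, 93.2% among those of 5 and 100% among the 53 with 6 or more. Longer loci offer more room, with medians of 680, 7330, 10070 and 16080 bp in these classes. Across the 400 loci, the number of dense peaks and the number of ESC Oct1 peaks had a Spearman correlation of 0.71, and the length of the locus one of 0.72, as a description only. Over the 127 loci with 5 or more dense peaks these values were 0.39 and 0.38. Within loci of 5 or more dense peaks the share of dense peaks with ESC Oct1 had a median of 50%, with an interquartile range of 33.3% to 60%. At the extremes, 6 of those 127 loci had none and 6 had it on every dense peak.

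**Figure D4:**
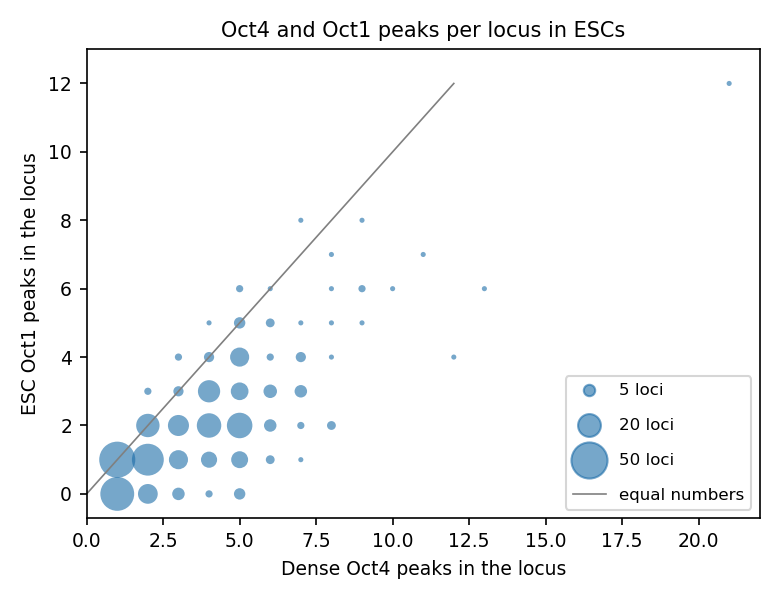
ESC Oct1 peaks against dense Oct4 peaks in each of the 400 loci; the area of a circle gives the number of loci at that point and the line marks equal numbers. Most loci lie below the line, and Septin9, at 21 dense and 12 Oct1 peaks, is the farthest out.

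Windows of 10 kb to either side counted Oct1 near a peak as well as on it. Within 10 kb of 1335 dense peaks, or 96.8%, there was an ESC Oct1 peak, against 69.2% of all Oct4 peaks and 67.4% of the others. Day 3 Oct1 was within 10 kb of 227 dense peaks (16.5%), against 13.1% of all Oct4 peaks, and day 6 Oct1 of 271 (19.7%), against 15.4%. The mean number of ESC Oct1 peaks in the window was 2.98 for dense and 1.11 for other Oct4 peaks. Per Oct4 peak in the window, however, the number went from 0.619 for isolated Oct4 peaks to 0.543 for those with 4 others and 0.536 for those with 6 or more. Windows of neighbouring peaks overlap, so the same Oct1 peak counts several times.

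When the density rule was applied to the Oct1 lists themselves, 416 ESC Oct1 peaks (2.35% of the list) were dense and formed 142 loci. Of these, 71 (50%) overlapped a locus of dense Oct4 peaks, and 70 Oct4 loci (17.5%) were involved. Of single ESC Oct1 peaks, dense or not, 4.14% lay in a dense Oct4 locus. At day 3 the rule kept 6 Oct1 peaks (0.123%) in 2 loci, and at day 6 it kept 12 (0.155%) in 4. None of these loci overlapped a dense Oct4 locus. Over the whole lists, only 0.781% of day 3 and 0.709% of day 6 Oct1 peaks lay in one, so counts this small show no avoidance. The minimum of 4 others was the same for lists of different lengths. The larger day 3 locus stood over histone genes (H3c3, H2bc3, H2ac4, H3c2 and H4c2) with 5 peaks. The largest of day 6 stood at Kdm6b, a gene for a demethylase of histone H3, with 6 peaks and 1 Oct4 peak.

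The Oct1 peaks listed at dense Oct4 sites during differentiation ranked low in their lists. The 674 ESC Oct1 peaks on dense Oct4 peaks had a median percentile of 46.6 by score in the ESC list, close to the 50.1 of those on other Oct4 peaks. The 34 day 3 peaks on dense Oct4 peaks had a median percentile of 22.8, against 33.6 on other Oct4 peaks and 53.9 on none. The 51 day 6 peaks had a median percentile of 7.84, against 13.4 and 54.5. Their scores ended at 466, below the day 6 list median of 508, and 31 of the 51 (60.8%) fell in the lowest 10% of the list. On other Oct4 peaks this lowest-10% share was 40.8%, and off Oct4 peaks it was 5.29%. Percentiles compare peaks within one list, and lists of different lengths do not give a change of binding over time.

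**Figure D5:**
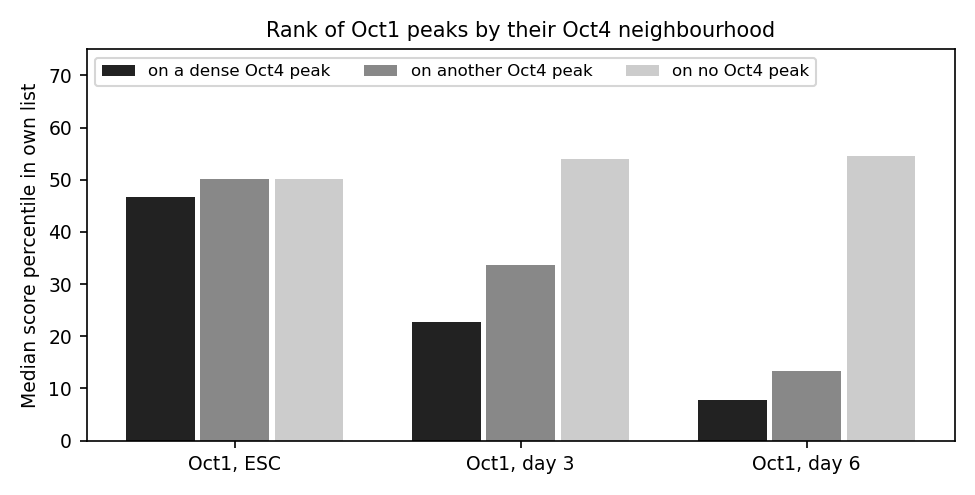
Median score percentile of Oct1 peaks within their own list, for peaks on a dense Oct4 peak, on another Oct4 peak and on no Oct4 peak, in ESCs, at day 3 and at day 6; bars start at 0. The day 6 medians are 7.84, 13.4 and 54.5.

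Oct1 was listed in ESCs, at day 3 and at day 6 in 6 loci, the whole of that class. At Ppp1ca and Rad9a, genes for a protein phosphatase catalytic subunit and a DNA damage checkpoint clamp, the day 6 score was 466, the highest day 6 score in any locus. The day 3 score at the same site was 142 and the highest ESC Oct1 score 192. In Piezo1 the widest dense peak of all, 3140 bp with an Oct4 score of 783, met Oct1 in each list, with scores of 417 in ESCs, 168 at day 3 and 338 at day 6. The other 6 dense peaks of Piezo1 scored from 93 to 256, and 1 of them had Oct1, in ESCs alone. In Cdh23, a cadherin gene of sensory hair cells, the day 3 peak (score 329) sat on the strongest ESC Oct1 site (897), and the day 6 peak (94) on a neighbour. Near Spring1, at Wnt9b and Wnt3, and in the Rbfox3 locus of 16160 bp the highest day 6 scores were 146, 91 and 98. Their percentiles in the day 6 list were 13.4, 6.32 and 7.19, and that in Cdh23 was 6.70, all near the bottom of the list.

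The 71 loci without Oct1 in any list (17.8%) were small. Of these, 44 were single dense peaks, and the largest held 5. By the number of dense peaks the first were a locus 181815 bp from 1700018B08Rik, then Actn4 (an actin cross-linker), Cntn2 (a neuronal adhesion protein) and Ift27 (intraflagellar transport), with 5 each. The Nmt1 and Plcd3 locus and the one near Mpped1 had 4, and Prkcd (a protein kinase C), Tpst2, the locus near Actrt2 and Myo7a (an unconventional myosin) had 3. Among these 10 loci the highest Oct4 score was 280, in Prkcd, and the others peaked between 128 and 200. Over all 71 the highest was 571, the single dense peak in Esrrb, a gene for an orphan nuclear receptor.

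Gene lists for pluripotency, signalling, mesoderm and neural genes showed few such loci. Of all protein-coding genes, 415 of 21887, or 1.90%, had a dense locus within 10 kb. Among pluripotency genes it was 1 of 49, the nuclear receptor gene Esrrb. Esrrb held a single dense peak with a score of 571 and no Oct1, within a gene that together with its 10 kb flanks had 12 Oct4 and 12 ESC Oct1 peaks and none of day 3 or day 6. Pou5f1, Sox2, Nanog and Klf4, genes of the core pluripotency network, had no dense locus by this rule. Among signalling genes it was 1 of 35, Wnt3, a ligand gene of primitive streak formation, with 4 dense peaks scoring from 84 to 143. Of the 4, 1 had ESC and day 3 Oct1, another ESC and day 6 Oct1, and the other 2 had none. No gene of 26 mesoderm genes, among them Brachyury (symbol T), had a dense locus. Among 15 neural genes it was Nes, the intermediate filament gene nestin, by a locus that lay outside the gene at chr3:87982231-87991140 and overlapped Bcan, which encodes a brain proteoglycan. That locus held 4 dense peaks, 1 ESC Oct1 peak and 1 of day 6, and Nes with its 10 kb flanks held 3 ESC Oct1 peaks. Counts this small do not set any list apart from the 1.90% over all genes.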

How the data were processed

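ChIP-seq peak lists of 4 libraries were used: Oct4 in ESCs (22817 peaks) and Oct1 in ESCs (17709), at day 3 (4867) and at day 6 (7758), each group with 1 library assigned from its source name. The 3 inputs among the 7 samples were not analysed here. Per the labels' protocols, chromatin was fixed with 1% formaldehyde and sequenced as paired 50 bp reads, with a stated 100 M read pairs. Per the submitters' processing notes, Novoalign 3.8.2 and the build mm10 (GRCm38) were used. The peak caller, its threshold and its control are not given in the sources used here, and sequencing depth per library cannot be read from the lists. The deposited lists give chromosome, start, end, name and a score, which is the authors' whole-number value per peak without a stated unit. Coordinates are printed 1-based.

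Dense peaks, loci, overlaps (at least 1 bp) and shares with exact 95% Clopper-Pearson intervals were computed in scipy 1.17.1, pandas 2.3.3 and numpy 2.4.6 under Python 3.11.15, and overlaps were checked with bedtools 2.31.1. The steps were tested on simulated data, in which planted dense peaks were all recovered. Plots used matplotlib 3.10.9. Genes came from the RefSeq table of GRCm38.p6 (49943 genes on the chromosomes, 21887 protein-coding). Starts of 27025 genes came from the promoter table, and for 22918 genes either end was used. Promoters on chromosome 18 were not used here, so either end was used for all its genes. Exons were not given, so peaks inside genes are not split into exonic and intronic. Percentiles rank a score within its own list.

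Named loci were the 25 with the most dense peaks (ties by summed score), those with Oct1 at day 3 and day 6, the 10 with the most ESC Oct1 peaks, the 10 largest without Oct1, and list genes with a locus within 10 kb. Other genes were named for holding the most dense peaks or the highest scores, and were chosen after their values were seen. A list of chromatin genes and some named loci are not reported here. The members and the lists were chosen with earlier results of these data known. No p-value was computed. Alternatives changed the window, the minimum, the joining distance, the overlap, score filters and gene starts, and left out chromosome 11. Another 6 were added after seeing the data.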

Additional observations from a re-analysis of the deposited data

Results flagged for a closer look

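The difference between dense and other Oct4 peaks in the share that overlapped Oct1 had a positive sign in ESCs and a negative one at day 3 and day 6. The share of dense minus other Oct4 peaks was 4.09 percentage points in ESCs, -1.92 points at day 3 and -0.733 points at day 6. Each value comes from 1 library, so the change between stages was not tested. Over 10 alternatives for each, the counting interval lay above 0 in 6 for ESCs, below 0 in 9 for day 3 and below 0 in 5 for day 6, and included 0 in the others. The day 6 interval included 0 by the rule used here. The ESC interval included 0 without chromosome 11 (-0.238 to 5.99), and the signs in ESCs and at day 6 changed with the processing. The part of gene starts, peak width and chromosome 11 in these differences was not tested beyond the within-class shares given above.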

How the results depend on the processing

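Of 89 alternative values for 12 results, 50 stayed within their interval or within 1.5 times the count, 37 moved and 2 changed sign. A window of 5 or 20 kb gave 115 or 4835 dense peaks in 55 or 1336 loci, a minimum of 3 others gave 3282 in 891 and a minimum of 6 gave 120 in 45, and the higher-scoring 50% of Oct4 peaks held 153 dense peaks. With a minimum of 6, Oct1 overlapped 55.8% of dense ESC peaks, 0.833% on day 3 and 1.67% on day 6, and the differences from other peaks were 9.91, -3.46 and -2.73 points. The day 6 difference had an interval below 0 in 5 cases, namely windows of 5 kb (-5.07 to -0.257) and 20 kb (-1.93 to -0.749), minimums of 3 (-1.96 to -0.604) and 6 (-5.04 to -0.429), and the higher-scoring 50% of Oct1 peaks (-0.952 to -0.709). With the 5 kb window the day 6 share was 1.74% and its difference -2.66. With the higher-scoring 50% of each Oct1 list, the shares of dense peaks were 24.1%, 0.435% and 0%, those of loci 55.2%, 1.25% and 0%, and the ESC difference 0.724. An overlap of 50% of both peaks gave an ESC share of 42.1% and a difference of -0.227. Leaving out chromosome 11 gave an ESC share of 47.1% and a difference of 2.88 (-0.238 to 5.99). Joining at 5 kb gave 72.8% of loci with ESC Oct1 and 9.63% with day 6 Oct1. Away from gene starts the day 3 difference was -1.03 and the day 6 difference 0.481. Loci extended to neighbouring Oct4 peaks had Oct1 in 97.2%, 17.8% and 21.8% of cases, and loci of 5 or more dense peaks in 96.1% (ESCs) and 12.6% (day 3). Dense peaks at a gene start or end made up 28.1% within 5 kb, 4.13% with starts of the promoter table only and 11.2% with either end of every gene. The causes were not tested.

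No paired analysis was possible because each group held 1 library, and no replicate was left out for the same reason. The threshold of each list is unknown and no read counts are given, so a place without a listed peak is not shown to be unbound.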
